A study of Caenorhabditis elegans with 3 samples.

Results

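LET-418 binding sites on the 2 arms of Caenorhabditis elegans chromosome III were described from ChIP-seq peaks. The sites were taken from the combined peak list of the authors by position alone. A peak belonged to the left arm when its midpoint lay at or below position 3722000 of chromosome III, and to the right arm when it lay above 10340000 (WormBase WS220). The low-recombination centre between these positions was left out. The rule kept 976 of the 9187 combined peaks, 654 on the left arm and 322 on the right arm. They are 58.0% of the 1684 combined peaks of chromosome III, on 51.9% of its length. The arms include the chromosome ends. The left arm measured 3.72 Mb, and the right arm 3.43 Mb up to 13771347, where the outermost peak of the 3 lists ended.

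LET-418 was precipitated in 2 ChIP replicates from wild-type worms of strain N2, harvested as L3 larvae from a mixed Male and Hermaphrodite population kept at 20 °C. The affinity-purified rabbit polyclonal antibody SDQ3861 was used, after crosslinking in which EGS alone preceded EGS combined with formaldehyde. All samples share this strain, stage and genotype, and whole larvae were used, so sites from different tissues are pooled in each list. The labels also describe 1 input DNA library, which was not analysed here. Separate cultures are not stated for the replicates, so their spread may be technical.

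LET-418 is one of the worm homologues of Mi-2, an ATPase that moves and repositions nucleosomes. It acts in the NuRD complex, which also carries histone deacetylase activity, and in the MEC complex, and it is known in worms for holding germline genes silent in somatic cells and for a role in leaving larval arrest. Worm chromosomes have no single centromere. Each autosome has a gene-dense centre with little meiotic recombination and 2 arms with more recombination, more repeats and more histone H3 lysine 9 methylation, which lie close to the nuclear lamina. These are background facts and not results of these lists.

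Each list gives the start, the end and a score of each peak. The score comes from the authors without its scale and describes peaks within 1 list only. Read counts are not part of the lists, so depth is unknown, and a peak count cannot be told apart from depth or enrichment. The replicate 1 list held 16140 peaks and the replicate 2 list 9817. Peaks of 1 list are not replicates of a condition and neighbours may be alike, so no test was made over peaks, and intervals below cover counting error only. Sequences and genes at the sites were not used here.

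Peaks were denser on the left arm than on the right arm in every list. In the combined list the left arm held 17.6 peaks per 100 kb (95% Poisson interval 16.3 to 19.0) and the right arm 9.38 (8.39 to 10.5). The ratio of left to right was 1.87 (exact interval for counting error 1.64 to 2.15). In replicate 1 the left arm held 1118 peaks, or 30.0 per 100 kb, and the right arm 661, or 19.3 per 100 kb. In replicate 2 the left arm held 605 peaks, or 16.3 per 100 kb, and the right arm 325, or 9.47 per 100 kb. The left to right ratio was therefore 1.56 (1.42 to 1.72) in replicate 1 and 1.72 (1.50 to 1.97) in replicate 2. Both lay below the combined ratio of 1.87. Of the replicate 1 peaks, 45.4% on the left arm and 55.2% on the right arm overlapped no combined peak, against 44.8% in the centre. In replicate 2 these shares were 11.4% and 17.5%, against 28.3% in the centre. What part they had in the combined ratio was not tested. The left arm was the denser one within both replicates, while the densities of replicate 1 exceeded those of replicate 2 on each arm. Over the replicates the density was 23.1 ± 9.75 per 100 kb on the left arm and 14.4 ± 6.92 on the right arm (SD, n = 2 each). Both arms of a replicate come from the same library, and the ratio within a replicate averaged 1.64 ± 0.111 (SD, n = 2). An exact two-sided permutation test of the densities gave p = 0.667 with the arms as separate values and p = 0.5 with the arms paired within each replicate. Neither test could have passed, since 2 replicates allow no p below 0.333 unpaired or 0.5 paired.

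**Figure D1:**
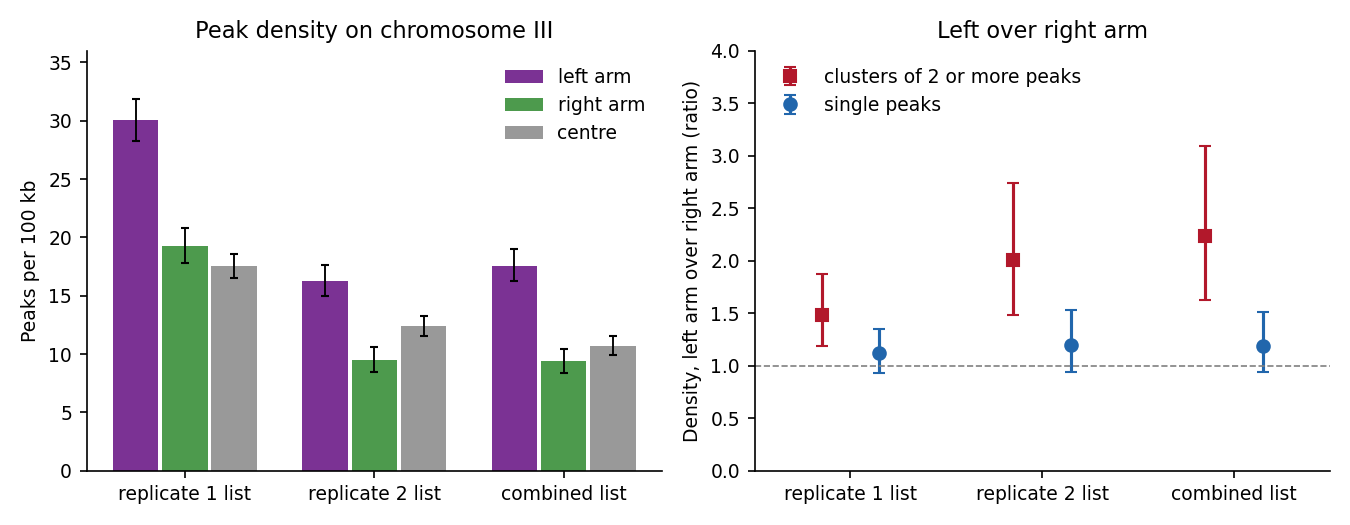
The bars on the left give peaks per 100 kb on the left arm, the right arm and the centre of chromosome III in each list, with 95% Poisson intervals. The points on the right give the ratio of left arm to right arm density for clusters and for single peaks, with exact intervals for counting error and a dashed line at 1. Clusters lie at 1.49, 2.00 and 2.23 in the replicate 1, replicate 2 and combined lists, while the intervals of single peaks cover 1 in each list.

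The arms together were denser than the centre by an amount that depended on the replicate. In the combined list the arms held 13.6 peaks per 100 kb and the centre 10.7 (708 peaks), a ratio of 1.28 (1.16 to 1.41). The ratio was 1.42 (1.32 to 1.53) in replicate 1 and 1.05 (0.955 to 1.16) in replicate 2. The left arm stood above the centre in all 3 lists, with ratios of 1.64 in the combined list, 1.71 in replicate 1 and 1.31 in replicate 2. The right arm held more peaks per 100 kb than the centre in replicate 1 (ratio 1.098, 0.997 to 1.21) and fewer in replicate 2 (0.765, 0.671 to 0.871) and in the combined list (0.877, 0.766 to 1.00). On the arms replicate 1 held 1.91 times as many peaks as replicate 2, against 1.42 times in the centre and 1.64 times over the whole lists. What part this difference between replicates had in the ratios was not tested.

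A lopsided pair of arms was not particular to chromosome III. When every other chromosome was split at the same fractions of its length, 27.0% on the left and 24.9% on the right, the left to right ratio in the combined list was 2.49 on IV. It was 0.867 on I, 0.852 on II, 0.668 on V and 0.868 on X. On IV the left part had 11.0 peaks per 100 kb and the right part 4.41, so the left arm of III was denser than both. The left arm of III, at 17.6 per 100 kb, was the densest of the 12 outer parts in the combined list. It was also the densest of them in replicate 1 and in replicate 2. No test of these differences was made.

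Most of the extra peaks of the left arm lay in clusters. Peaks whose edges lay less than 1 kb apart were joined, and a joined region of 2 or more peaks was called a cluster. The left arm held 138 clusters, or 3.71 per 100 kb, and the right arm 57, or 1.66 per 100 kb, a ratio of 2.23 (1.63 to 3.09). Peaks that stood alone numbered 164 on the left arm, or 4.41 per 100 kb, and 127 on the right arm, or 3.70 per 100 kb. The ratio of these single peaks was 1.19 (0.939 to 1.51), with an interval that covers 1. Clustered peaks came to 13.2 per 100 kb on the left arm and 5.68 on the right arm. In each replicate, too, the ratio of clusters was above that of single peaks, a difference that was not tested. The cluster ratio was 1.49 (1.18 to 1.87) in replicate 1 and 2.00 (1.48 to 2.74) in replicate 2. That of single peaks was 1.12 (0.933 to 1.35) and 1.20 (0.938 to 1.53) in the same order. With a fixed joining distance, a larger share of peaks is joined on a denser arm even at random positions. Whether the clustering of the left arm goes beyond its density was not tested.

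Of the left arm peaks, 490 of 654 (74.9%, Wilson interval 71.5 to 78.1%) lay in clusters, and of the right arm peaks 195 of 322 (60.6%, 55.1 to 65.7%). Over all combined peaks of the genome the share was 66.2%, so the left arm was above it and the right arm below it. In replicate 1 the shares were 76.3% on the left arm and 67.0% on the right arm, and in replicate 2 they were 74.0% and 62.8% in the same order of arms. Clusters of 5 or more peaks numbered 26 on the left arm and 12 on the right arm. They held 29.8% of the left arm peaks and 26.1% of the right arm peaks, against 25.7% over all combined peaks. In replicate 1 such clusters held 41.3% of the left arm peaks and 26.9% of the right arm peaks, and in replicate 2 they held 25.5% and 23.1%. Clusters of 3 peaks numbered 33 on the left arm and 7 on the right arm, and clusters of 2 numbered 60 and 31. The contrast for clusters of 3 was smaller in the replicates, with 49 and 31 in replicate 1 and 26 and 17 in replicate 2. Clusters of 2 numbered 70 and 52 in replicate 1, and 74 and 31 in replicate 2. A cluster held 3.55 peaks on average on the left arm and 3.42 on the right arm in the combined list, 4.20 and 3.52 in replicate 1, and 3.22 and 3.19 in replicate 2.

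Neighbouring peaks were closer on the left arm, which was also the denser one. The median distance between neighbouring midpoints was 1084 bp on the left arm (quartiles 474 and 4516 bp) and 2098 bp on the right arm (712 and 10429.5 bp). The medians were 947 bp on the left and 1445 bp on the right arm in replicate 1, and 1278 bp and 2176 bp in replicate 2. Each list put the left arm below the right arm, although the right arm of replicate 1 came close to the left arm of replicate 2. Distances under 1 kb made up 48.4% of the left arm spacings and 34.3% of the right arm spacings in the combined list. Distances over 10 kb made up 14.4% on the left arm and 26.2% on the right arm. Both kinds of distance differed, those inside clusters and those between joined regions. Inside clusters the median was 502 bp on the left arm and 661 bp on the right arm, and from one joined region to the next it was 5.05 kb and 8.61 kb.

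**Figure D2:**
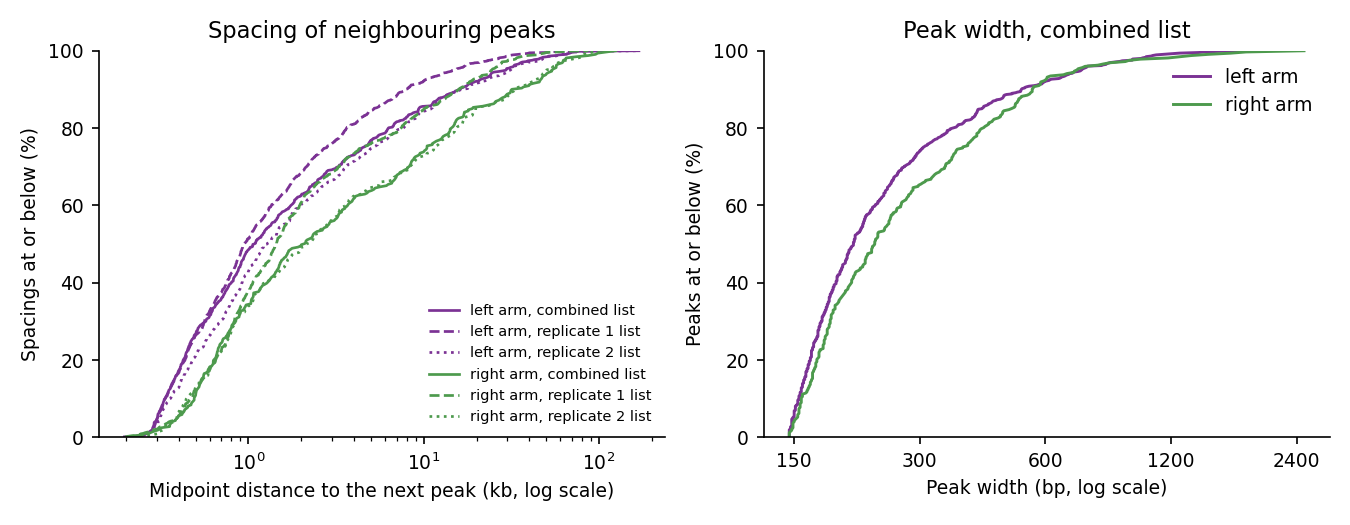
The curves on the left give the percentage of spacings at or below each distance in kb (log scale), for the left and right arm in the 3 lists. The curves on the right give the percentage of combined peaks at or below each width in bp (log scale). The left arm curves lie above the right arm curves of the same list over most of the range of distances, and left arm peaks are the narrower ones, with medians of 208 bp against 234 bp.

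Left arm peaks were narrower but carried higher scores. The median width in the combined list was 208 bp on the left arm (quartiles 169 and 306 bp) and 234 bp on the right arm (177 and 381 bp), against 229 bp over all combined peaks. It was 210 bp on the left and 222 bp on the right arm in replicate 1, and 222 bp and 258 bp in replicate 2. The difference of 12 to 36 bp had the same sign in each list, and it was no larger than the shift of the right arm median between the replicates. Peaks under 200 bp made up 45.7% of the left arm and 37.9% of the right arm, against 37.5% of all combined peaks. Peaks wider than 1 kb were few, 14 on the left arm (2.14%) and 8 on the right arm (2.48%), close to the 2.05% over all combined peaks. The narrowest peak on each arm measured 146 bp in all 3 lists.

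The median combined score was 5.26 on the left arm, 3.93 on the right arm and 3.62 in the centre, against 3.93 over all combined peaks. Within replicate 1 the medians were 8.74 on the left arm, 6.06 on the right arm and 6.07 in the centre, and within replicate 2 they were 6.98, 4.93 and 4.93 in the same order. The combined score has a ceiling of 9.03, which 58 left arm peaks reached (8.87%, 6.92 to 11.3%) and 10 right arm peaks (3.11%, 1.70 to 5.62%), against 2.68% of all combined peaks. The left arm thus held 23.6% of the 246 peaks at the ceiling and 7.12% of all combined peaks. All 68 ceiling peaks of the arms overlapped a peak in both replicates, as did 90.4% of all combined peaks. Of them, 51 of the 58 on the left arm and 7 of the 10 on the right arm lay in clusters. The shares over all combined peaks of these arms were 74.9% and 60.6%, and 66.2% over the genome. Ceiling peaks were wider than the typical arm peak, with median widths of 430 bp on the left arm and 377 bp on the right arm.

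Peak counts rose and fell along the left arm, and covered a smaller range along the right arm, which held fewer peaks. In windows of 500 kb counted outward from the inner boundary, the left arm peaked between 1722001 and 2222000 with 156 combined peaks. That window held 245 peaks in replicate 1 and 146 in replicate 2. The window next to it on the inner side, from 2222001 to 2722000, was the sparsest full window of the left arm with 43 combined peaks, 85 in replicate 1 and 40 in replicate 2. In replicate 1 the window from 222001 to 722000 was lower still, with 81. A second dense window ran from 2722001 to 3222000 with 113 combined peaks. The densest full window of the right arm, from 11340001 to 11840000, held 56 combined peaks, 113 in replicate 1 and 55 in replicate 2. In both replicates the window from 10340001 to 10840000 ranked first instead, with 117 peaks in replicate 1 and 59 in replicate 2, against 52 in the combined list. The sparsest, from 11840001 to 12340000, held 31 combined peaks, 76 in replicate 1 and 29 in replicate 2. The full left arm windows thus spanned 43 to 156 peaks and the full right arm windows 31 to 56. These ranks leave out the shorter window at the right end, from 13340001 to 13771347. It held 13.0 combined peaks per 100 kb, against 11.2 in the densest full window of the right arm. In replicate 2 it also exceeded the densest full window, with 14.1 against 11.8 per 100 kb. In replicate 1 it did not, with 22.3 against 23.4.

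The finer profile was alike in the replicates. Over 37 full windows of 100 kb on the left arm the combined count ran from 3 to 54 with a median of 14. Over 34 on the right arm it ran from 1 to 33 with a median of 8. Relative to its median, the range on the right arm was no narrower than that on the left arm. On the left arm 16 windows held 20 or more combined peaks, against 2 on the right arm. No full window of 100 kb was empty in any list on either arm. Window counts of the replicates ranked alike, with Spearman's rho of 0.93 on the left arm and 0.83 on the right arm. The windows of an arm share 2 libraries and are not independent, so these coefficients are descriptions.

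**Figure D3:**
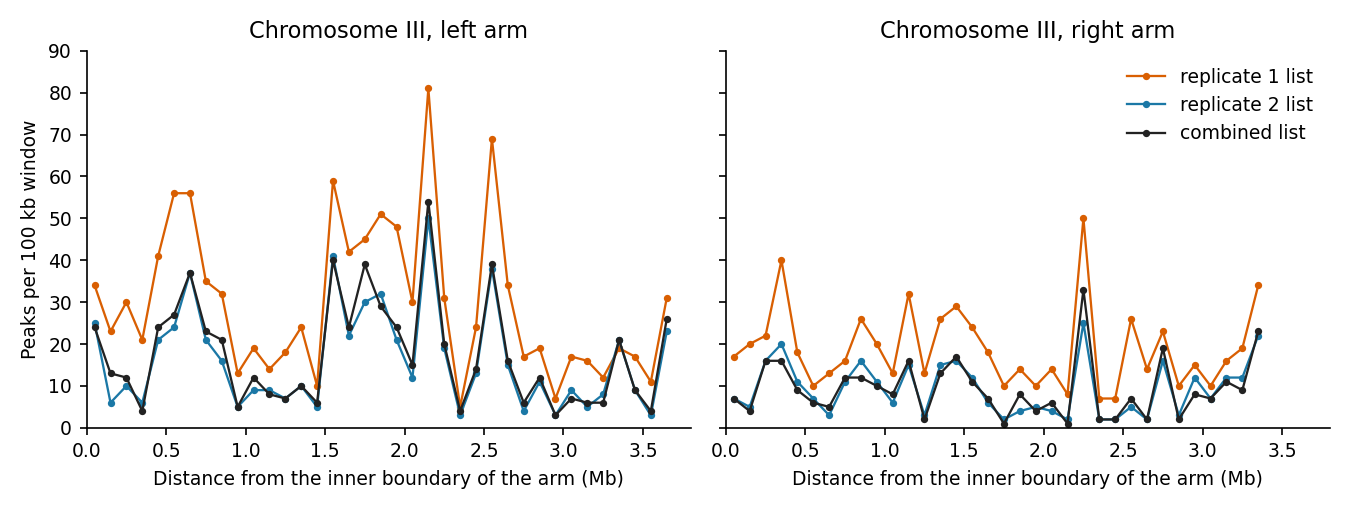
Each point gives the number of peaks in a full 100 kb window against its distance in Mb from the inner boundary of the arm, left arm and right arm, for the replicate 1, replicate 2 and combined lists. The combined count reaches 54 on the left arm and 33 on the right arm, and the 3 lists share their highest window on each arm.

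The largest clusters lay in dense and in sparse stretches of the arms. The 500 kb window of the first left arm cluster held 156 combined peaks, and that of the second held 49. The window of the first right arm cluster held 38. The cluster with the most peaks on the left arm ran from 1923060 to 1932612, a span of 9553 bp that held 17 combined peaks and 11 peaks in each replicate. Its widest replicate peak measured 2101 bp in replicate 1 and 2647 bp in replicate 2, so the replicates had joined stretches that the combined list divided. The second, from 348832 to 357360, held 13 combined peaks, 8 in replicate 1 and 10 in replicate 2, and all 13 were present in both replicates. The third, from 2869361 to 2876599, held 12 narrower peaks with a median width of 209 bp, of which 9 were present in both replicates and 3 in replicate 1 alone. On the right arm the cluster with the most peaks ran from 13060635 to 13072795, a span of 12161 bp. It held 14 combined peaks, all present in both replicates, with 12 peaks in each replicate list. The next, from 13716111 to 13722399, held 8 combined peaks, 7 of them in both replicates, close to the right end of the chromosome. The third, from 10631792 to 10637954, also held 8, all in both replicates, with 6 peaks in replicate 1 and 5 in replicate 2.

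The widest single peaks overlapped a peak in both replicates, although the second widest of each arm had a midpoint within 500 bp in 1 replicate only. On the left arm, the widest ran from 317652 to 319629 (1978 bp) and stood alone. It measured 2008 bp in replicate 1 and 1994 bp in replicate 2, so all 3 lists drew nearly the same domain. Its combined score of 4.60 was below the left arm median, so the widest site was not among the best-scoring ones. The second, from 1925557 to 1927122 (1566 bp), belonged to the cluster of 17, and the third, from 1155119 to 1156559 (1441 bp), reached the ceiling score. On the right arm the widest ran from 12613515 to 12616015 (2501 bp), also at the ceiling, inside a single peak of 4123 bp in replicate 1 and 4610 bp in replicate 2. The second, from 10633183 to 10634998 (1816 bp), lay under a single peak of 2846 bp in replicate 2 and across 2 peaks in replicate 1. The third ran from 13070461 to 13072130 (1670 bp) in the cluster of 14.

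The outermost left arm peak ran from 14260 to 14444, and the outermost right arm peak from 13771165 to 13771329. Both were present in both replicates. At the left boundary the nearest member, from 3703533 to 3703696, lay 18.4 kb inside and the nearest excluded peak, from 3734068 to 3734260, 12.2 kb outside. At the right boundary the nearest member, from 10378877 to 10379025, lay 39.0 kb inside, and the nearest excluded peak, from 10337745 to 10337940, 2.16 kb outside. The 3 peaks on either side of each boundary were all present in both replicates. No peak lay across a boundary.

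Stretches without a combined peak took up more of the right arm. Gaps of at least 50 kb between neighbouring combined peaks numbered 11 on the left arm and 19 on the right arm, and covered 21.6% of the left arm and 39.1% of the right arm. In the centre 25 gaps covered 28.4%. In replicate 2 the shares were 22.6% on the left arm (12 gaps) and 33.1% on the right arm (16 gaps). In replicate 1 the order was the other way round, with 10.0% of the left arm (6 gaps) and 6.11% of the right arm (3 gaps). The combined gaps were therefore seldom bare in replicate 1. The 11 gaps of the left arm held 42 replicate 1 peaks and 3 replicate 2 peaks, and the 19 gaps of the right arm held 96 replicate 1 peaks and 13 replicate 2 peaks. On each arm 1 gap had no peak in any list.

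The longest gap on the arms lay on the left arm, from 1250168 to 1418615 (168 kb), and held 7 replicate 1 peaks and no replicate 2 peak. The 500 kb window around it still had 107 combined peaks. The next on the left arm, from 2213436 to 2288722 (75.3 kb), reached across the border between the densest and the sparsest window and held 2 replicate 1 peaks and 1 replicate 2 peak. The third, from 908261 to 982037 (73.8 kb), held the same numbers. On the right arm the longest ran from 12015405 to 12139473 (124 kb), with 12 replicate 1 peaks and 1 replicate 2 peak. The others ran from 12711454 to 12821656 (110 kb), with 6 replicate 1 peaks and none of replicate 2, and from 11558334 to 11656331 (98.0 kb), with 10 replicate 1 peaks and 2 of replicate 2. Whether reads can be placed uniquely in the gaps was not tested.

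**Figure D4:**
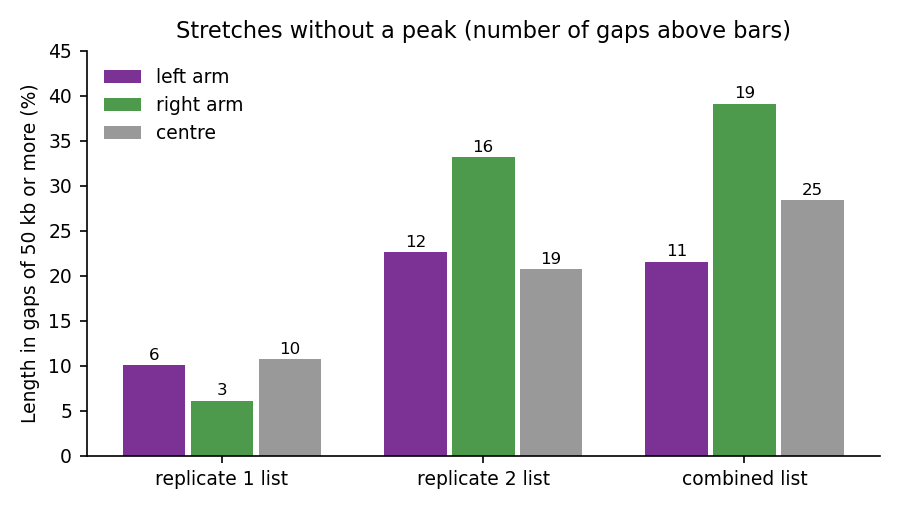
Bars give the percentage of the left arm, the right arm and the centre of chromosome III that lies in gaps of at least 50 kb between neighbouring peaks of each list, with the number of gaps above each bar. The right arm exceeds the left arm in the replicate 2 list (33.1% against 22.6% on the left arm) and in the combined list, and not in the replicate 1 list.

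Every arm peak of the combined list overlapped a peak in at least 1 replicate, and both replicates held most of them. At an overlap of at least 1 bp, 569 of 654 left arm peaks (87.0%, 84.2 to 89.4%) and 280 of 322 right arm peaks (87.0%, 82.8 to 90.2%) were present in both replicates. Over all combined peaks the share was 90.4%, and in the centre of III it was 92.8% (90.7 to 94.5%). The equal shares of the arms depended on the overlap rule: they were 70.2% on the left arm and 66.1% on the right arm when each pair had to cover 50% of both peaks, and 90.7% and 85.1% with midpoints within 500 bp. The combined list was made from the same 2 samples, so these shares describe how it relates to them and do not measure how often binding repeats. The remaining arm peaks were nearly all in replicate 1 alone. These were 80 peaks on the left arm (12.2%) and 41 on the right arm (12.7%), against 8.87% of all combined peaks. Peaks in replicate 2 alone numbered 5 on the left arm and 1 on the right arm, or 0.615% of the arm peaks, against 0.773% of all combined peaks. The 1 on the right arm ran from 11773954 to 11774163.

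The peaks held by 1 replicate were narrow and low in score, on the arms as over all combined peaks. On the left arm the median width was 219 bp for peaks in both replicates and 161 bp for those in replicate 1 alone, and on the right arm it was 253 bp and 166 bp. The median combined score was 5.30 and 3.28 on the left arm and 4.10 and 2.97 on the right arm, in the same order. Over all combined peaks the medians were 241 bp and 165 bp for width, and 4.13 and 2.97 for score. The combined list was made from the same 2 samples, so its score and the presence of a peak in both may not be independent. No arm peak in replicate 1 alone scored above 6.78 or was wider than 509 bp. Of arm peaks under 200 bp, 75.3% (71.0 to 79.2%) were present in both replicates, of those of 200 to 400 bp 94.2% (91.3 to 96.2%), and of those of 400 bp or more 99.0% (96.3 to 99.7%). Clustered peaks were held by both replicates more often than single ones, with 91.4% (87.5 to 94.2%) in clusters of 5 or more, 88.7% (85.2 to 91.4%) in clusters of 2 to 4 and 80.4% (75.5 to 84.6%) of single peaks. Wide peaks have more bases that can overlap, and 1 broad replicate peak can overlap several neighbouring peaks of a cluster. What part these have in the shares was not tested. Shares of the same classes outside the arms are not given here.

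**Figure D5:**
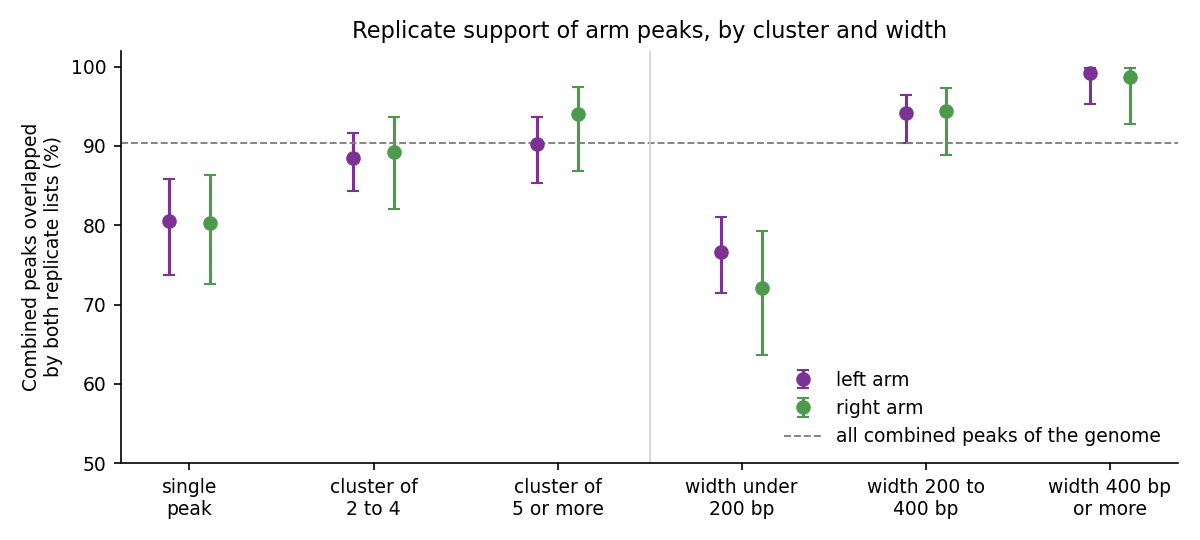
Points give the percentage of combined arm peaks overlapped by at least 1 bp in both replicate lists, left arm and right arm, by cluster size and by width, with 95% Wilson intervals. The vertical axis starts at 50%, and the dashed line marks the 90.4% of all combined peaks, of every width and cluster size. In each class the intervals of the 2 arms overlap, and the share goes up with width on both arms.

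The replicate lists give the other view. Of the 1118 replicate 1 peaks on the left arm, 52.7% (49.8 to 55.6%) overlapped a replicate 2 peak, and of the 661 on the right arm 44.0% (40.3 to 47.8%), against 55% of all replicate 1 peaks and 62.8% (60.0 to 65.5%) in the centre. The other way round, 96.5% (94.8 to 97.7%) of the 605 replicate 2 peaks on the left arm and 94.2% (91.1 to 96.2%) of the 325 on the right arm overlapped a replicate 1 peak, against 91.2% of all replicate 2 peaks and 88.2% in the centre. The replicate 1 peaks without a partner numbered 529 on the left arm and 370 on the right arm. They were narrow, with median widths of 175 bp and 188 bp, against 254 bp and 296 bp for the partnered replicate 1 peaks of the same arms. On the left arm 49.3% of those without a partner lay within 1 kb of a combined peak, and on the right arm 37.8%. Those more than 10 kb from any combined peak made up 7.75% on the left arm and 18.9% on the right arm. The centre lay between the arms, with 42.1% within 1 kb and 13.0% more than 10 kb away. Combined peaks were denser on the left arm, so any position there tends to lie closer to one. What part the density had in these shares was not tested.

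Scores of the replicates were related at sites matched one to one. On the left arm 454 combined peaks, and on the right arm 215, overlapped exactly 1 peak in each replicate that overlapped no other combined peak. Spearman's rho between the replicate scores was 0.72 on the left arm and 0.62 on the right arm, and that between the widths was 0.77 on the left arm and 0.74 on the right arm. These are correlations across sites of the same 2 libraries and are given as descriptions. At these sites the replicate 1 peak was wider than the replicate 2 peak at 329 sites and narrower at 123 on the left arm. It was wider at 136 sites and narrower at 76 on the right arm, and wider at 222 and narrower at 242 in the centre. Replicate peaks that covered 2 or more combined peaks were few. In replicate 1 they made up 3.31% of the left arm peaks and 3.78% of the right arm peaks, and in replicate 2 they made up 5.29% and 4.92%. Their shares in the centre were higher, 4.82% in replicate 1 and 6.96% in replicate 2.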

How the data were processed

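Peak lists of 2 LET-418 ChIP replicates and 1 combined list were used. BWA alignment to ce10 is named in the submitters' processing notes. MACS is named as the caller and WormBase WS220 as the build, per the file headers. Tool versions, the peak threshold, any use of the input and the way the combined list was made were not given in the sources used here. With each peak the authors deposited a score but no scale for it, and it was not used to select the arm peaks. Within them, the peaks at the ceiling score were grouped by score for description. The other values taken from the deposited lists are the 1-based start and end positions.

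Arm densities used the length up to each boundary, or from it to the outermost peak end. Overlap meant at least 1 bp. Gaps and spacings were measured between neighbouring peaks of the same arm. Intervals at 95% are Poisson for densities, exact binomial for ratios and Wilson for shares. The code was tested on simulated lists. Single sites were named by width, cluster size, gap length, window count and nearness to a boundary or chromosome end, and the 1 right arm peak in replicate 2 alone was named after its values were seen. The members, lists and comparisons were chosen with earlier results of these data known. Alternatives were other lists, boundaries, joining distances, gap lengths and overlap rules. The depth per sample is unknown. No genome or annotation of WS220 was used, so genes, sequences and GC content at the peaks are not reported. The software was SciPy 1.17.1, pandas 2.3.3, NumPy 2.4.6 and matplotlib 3.10.9 under Python 3.11.15.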

Additional observations from a re-analysis of the deposited data

How the results depend on the processing

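The left to right density ratio of 1.87 stayed above 1 in all 9 alternatives. It was 1.56 to 1.72 without 1 replicate, 1.51 for joined regions in place of peaks, 1.68 for covered bases, and 2.04 without the outermost 500 kb of each end. With the arms paired within each replicate (a replicate block, chosen after seeing the data) it was 1.64, which is the mean of the 2 replicate ratios. The exact paired permutation p was 0.5, the smallest that 2 pairs allow. The difference in median width kept its sign in all 5 alternatives (-36 to -12 bp). The difference in median spacing (left minus right) was -1014 bp, and -898 to -498 bp without 1 replicate. The share of peaks in clusters was 14.4 percentage points higher on the left arm, and 9.28 to 11.3 points higher without 1 replicate. The share of the arm in gaps reversed: left minus right was -17.6 points in the combined list, and -10.5 to 3.92 without 1 replicate, positive in the replicate 1 list. With gaps of at least 100 kb it was -2.30, where only 1 gap on the left arm and 2 on the right arm are left. The arms to centre ratio stayed above 1 in all 5 alternatives (1.05 to 1.42). The interval of the lowest, in replicate 2, covers 1 (0.955 to 1.16). The right arm alone lay below the centre in the combined list (0.877) and in replicate 2 (0.765), and above it in replicate 1 (1.098). The share of arm peaks in both replicates was 68.9% (70.2% on the left arm and 66.1% on the right arm) where each pair had to cover 50% of both peaks, a stricter rule by construction, and 88.8% (90.7% and 85.1%) with midpoints within 500 bp. Beyond this the cause was not tested. To leave out a replicate, the remaining replicate's own list stood in for the combined one. No other group with peak lists could be paired by replicate. Comparisons with genes, promoters and sequence were not run, for want of a genome and annotation of the same build. Without read counts, depth limits every count here.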
